A study of Homo sapiens with 6 samples.

Results

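The heat shock proteins and J-domain proteins of the cytosol and mitochondria, with their main regulators, were followed in U251 cells, an established human glioma line, after exposure to the volatile anesthetic sevoflurane (Sev). The genes were chosen by name among the protein-coding genes of the count table. They were those with HSPA, HSPB, HSP90A or DNAJA, DNAJB and DNAJC symbols plus HSPD1, HSPE1 and HSPH1, without 7 exceptions, most of which encode residents of the endoplasmic reticulum (ER). HSF1, HSF2, TRAP1 and BAG3 were added. This gave 69 genes of 61496 features in the table, and 66 of them had enough counts to be tested. The rule uses names and no measured value, although it was written with earlier results of these data known.

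Chaperones bind proteins that are unfolded or not yet folded and keep them from clumping. HSP70 proteins do this in cycles of ATP use, in which J-domain proteins (the DNAJ genes) bring the client and start ATP hydrolysis, and nucleotide exchange factors such as the HSP110 proteins release it. HSP90 takes over clients such as kinases and hormone receptors, HSP60 and HSP10 enclose proteins inside the mitochondrion, and small heat shock proteins hold unfolded chains without ATP. Under heat or other protein damage the factor HSF1 raises many of these genes at once, with HSPA1A, HSPA1B, DNAJB1 and HSPH1 among its best known targets, and glioma cells are known to hold high levels of several of them.

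Cells left untreated gave 3 control libraries and cells labelled as exposed to Sev gas for 2 h gave another 3, all made from total RNA with strand-specific adapters. The labels give no concentration for a single library. The protocol lists Sev at 1.7%, at 3.4% and at 5.1%, and the paper names the highest for its sequencing comparison. The paper speaks of independent experiments for its quantitative data in general, but no label says that the 3 libraries of a group came from separate cultures, so p-values measure the spread between these libraries, which may be technical.

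The libraries held 38624292 to 46318311 counts, which limits precision mainly for the genes with few counts. The first principal component, with 69% of the variance, separated the groups. TMM, a scaling that assumes most genes do not change, gave factors of 1.03 to 1.08 for control and 0.918 to 0.988 for Sev, so scaling by library size alone moved the median of all features by -0.14 on the log2 scale. The glioma label was borne out by VIM at 5123 to 6497 CPM (TMM-normalized counts scaled to a common library size), with NES, CD44 and GFAP also read in every library. Of 11 markers of blood, epithelial, endothelial, neuronal, oligodendrocyte and liver cells, none passed 5.14 CPM in any library. S100B, an astroglial marker, fell from 18.3 to 28.5 CPM in control to 10.1 to 10.6 CPM in Sev, and CD44 rose. As the RNA came from bulk cultures, a change in the number of cells with a transcript and a change in its amount per cell cannot be told apart.

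The chaperone genes spanned a wide range of levels, here given per length as the deposited FPKM. HSP90AB1, the constitutive cytosolic HSP90, led in every library with 261, 315 and 292 FPKM in control and 386, 365 and 410 in Sev. HSP90AA1, the inducible form, followed with a control mean of 117 ± 14.4 FPKM (SD, n = 3), then HSPA8, the constitutive cytosolic HSP70, with 116 ± 19.1 and HSPB1, the small heat shock protein HSP27, with 108 ± 3.07. These last 3 control levels did not differ beyond their spread. A second tier held HSPD1, DNAJB1, DNAJA1, HSPA9 and HSPA1B, at control means of 40.5, 40.3, 37.9, 32.6 and 31.2 FPKM. In Sev, DNAJB1 moved from the sixth place to the fifth, with 92.3 ± 9.52 FPKM. Over all 6 libraries, 5 members averaged at least 50 FPKM, 12 lay between 10 and 50, 33 between 1 and 10, and 19 were under 1. Together the members took 0.519 to 0.598% of a control library's counts and 0.601 to 0.675% of a Sev library's, and the 5 highest members made up 57.6 to 63.2% of the summed FPKM of the members.

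**Figure D1:**
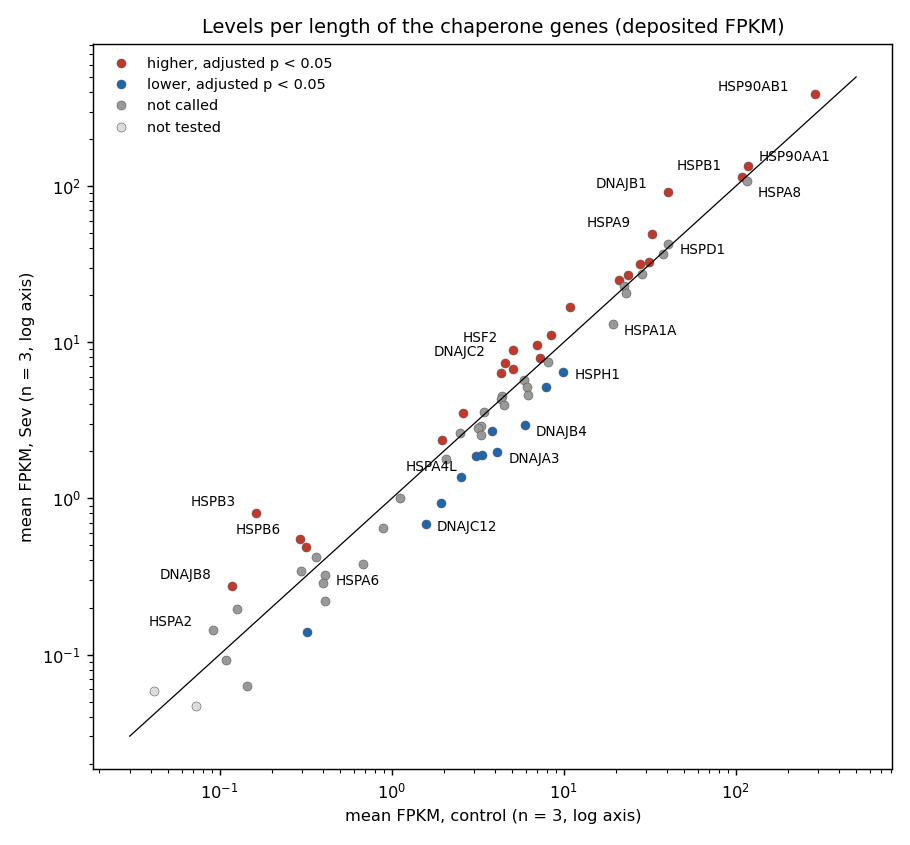
Mean deposited FPKM of each chaperone gene in the 3 control libraries (horizontal, log axis) and the 3 Sev libraries (vertical, log axis), with the line of equality, coloured by the edgeR call. HSP90AB1 lies at the top right at 289 FPKM in control, DNAJB1 stands farthest above the line among the abundant genes, and the low genes under 1 FPKM scatter widely.

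After Sev, 23 of the 66 tested members were higher and 11 lower at an adjusted p under 0.05, by the quasi-likelihood test of edgeR, adjusted over all 27514 features tested by the Benjamini-Hochberg method, and 32 were not called. That is 51.5% of the members, where 43.7% of all features and 45.9% of all protein-coding genes were called, so the share called lay near the background. The split was 34.8% higher and 16.7% lower, against 25% and 21% of protein-coding genes. With scaling by library size alone the split became 15 higher and 13 lower, 22.7% and 19.7% of the members, against 18.2% and 28.1% of protein-coding genes under the same scaling. The median log2 fold change of the members was 0.12, beside 0.038 over protein-coding genes, and the quartiles of the members were -0.29 and 0.52. At the study's fold threshold the calls were fewer and depended on single libraries. In the fit of all libraries 3 members were higher and 2 lower at the threshold in the study's methods, a log2 fold change beyond 1 in size with an unadjusted p under 0.05, which is 7.58% of the members against 23.5% of all features and 16.7% of protein-coding genes (9.07% higher and 7.62% lower). Without control replicate 2 or Sev replicate 3 there were 6 higher and without Sev replicate 1 there were 5, without control replicate 3 or Sev replicate 3 there were 0 lower, and scaling by library size gave 6 lower. With all libraries DNAJB1, DNAJB8 and HSPB3 were the 3 that passed it upward, and DNAJC12 and DNAJC28 passed it downward. The 2 groups of libraries did not overlap in 26 members that were higher and 12 that were lower, where the same held for 56.5% of all features and 57.8% of protein-coding genes, in either direction.

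**Figure D2:**
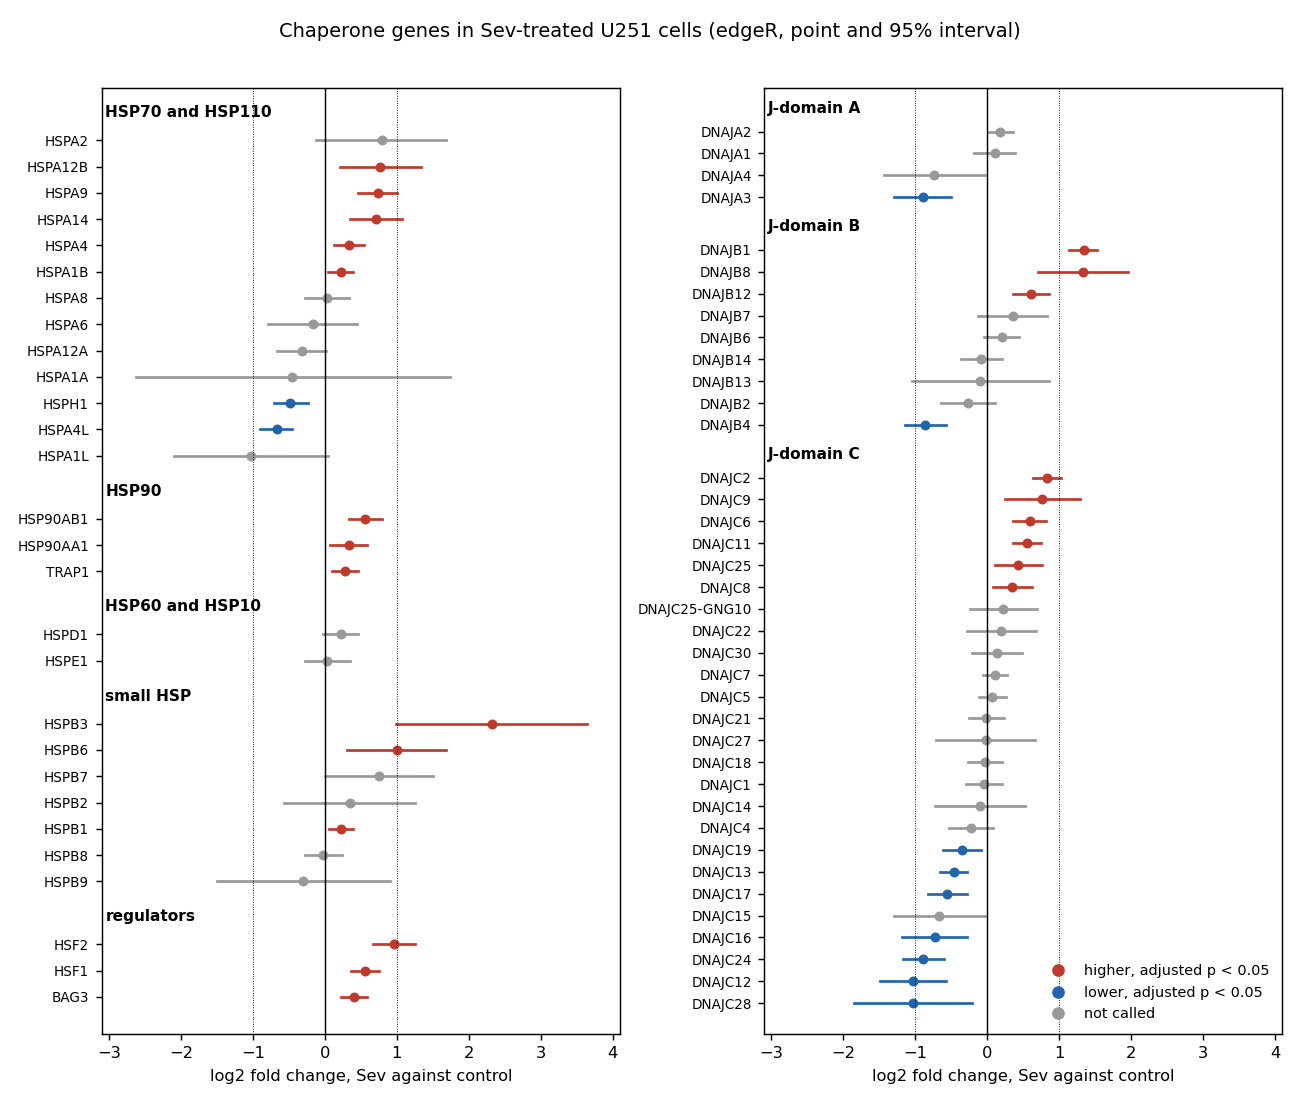
Log2 fold change of Sev against control for the 66 tested chaperone genes, by family, as the edgeR estimate (point) with its 95% interval (line), and dotted lines at the study's fold threshold of 1 in either direction. DNAJB1 has the narrowest interval of the genes past 1, all 3 HSP90 genes and all 3 regulators lie above 0, and the J-domain genes spread to both sides.

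DNAJB1, the stress-inducible HSP40 that partners HSP70, showed the firmest change of the members. It was read at 171, 172 and 176 CPM in control and at 474, 401 and 437 CPM in Sev. Every Sev library was far above every control library, and the control libraries were nearly equal. The change was 2.53-fold (log2 fold change 1.34, SE 0.084, edgeR adjusted p = 7.42e-05), between 1.28 and 1.40 on the log2 scale with any library left out. DNAJB1 lies on the minus strand of chromosome 19 (GRCh38, GENCODE 29, chr19:14514770-14529770). Upstream of a RefSeq start its promoter holds a pair of short inverted repeats of the kind that heat shock factors bind, at 77 and 47 bases before the start. They are shown in capitals in the RefSeq sequence of GRCh38.p14, chr19:14518417-14518494, minus strand.
DNAJB1: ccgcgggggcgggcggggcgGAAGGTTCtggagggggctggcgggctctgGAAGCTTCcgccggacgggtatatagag

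The inducible HSP70 genes themselves showed no rise of the size read for DNAJB1, a difference that was not tested. HSPA1B was read at 91, 95.4 and 91.5 CPM in control and at 102, 111 and 109 CPM in Sev, groups that did not overlap, a 1.16-fold difference (log2 fold change 0.22, SE 0.074, edgeR adjusted p = 0.0455). That call was lost when any library was left out (adjusted p of 0.0729 to 0.151) and with scaling by library size. Another gene on the same strand shares 36.5% of the exon bases of HSPA1B. HSPA1A, which encodes the same protein from a neighbouring gene, was read at 51.1, 57.5 and 55 CPM in control and at 57.4, 1.04 and 61.5 CPM in Sev. The Sev replicate 2 library stood apart with 39 counts of HSPA1A, where the other 5 libraries had 2162 to 2668. Of 8774 features with at least 500 counts in each of those 5 libraries, HSPA1A was the only one that fell under 10% of their lowest value in Sev replicate 2, and HSPA1B in that library, at 111 CPM, was close to the other Sev libraries. The cause was not tested. With all libraries the log2 fold change of HSPA1A was -0.45 with an SE of 0.95 (edgeR adjusted p = 0.73), and without Sev replicate 2 it was 0.13.

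Reads of the pair are partly exchangeable, since 63.25% of the 150-base windows of HSPA1A occur unchanged in HSPA1B (chr6:31815464-31817946 and chr6:31827735-31830255, plus strand). Their counts were therefore also summed. The sum was 142, 153 and 146 CPM in control and 160, 112 and 171 CPM in Sev, with Sev replicate 2 below and the other Sev libraries above all control libraries. Its log2 fold change was 0.004 (SE 0.15, 95% interval -0.34 to 0.35, edgeR adjusted p = 0.985), and without Sev replicate 2 it was 0.17. Outside that library the ratio of HSPA1A to HSPA1B counts stayed between 0.561 and 0.603, and in it the ratio was 0.00937.

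The most stress-specific HSP70 gene, HSPA6, was read at a low level and was not called. It had 55, 36 and 59 counts in control and 35, 31 and 51 counts in Sev, with overlapping groups and a log2 fold change of -0.17 (95% interval -0.79 to 0.45). HSPA8, which serves unstressed cells, was read at 560, 798 and 635 CPM in control and 682, 706 and 646 CPM in Sev. Its groups overlapped, with the control libraries spread wider than the Sev libraries, and its log2 fold change was 0.03 (95% interval -0.27 to 0.33). HSPA2, an HSP70 of the testis, reached at most 1.41 CPM in any library and was not called (log2 fold change 0.79, edgeR adjusted p = 0.14), and neither was HSPA1L, another testis form.

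**Figure D3:**
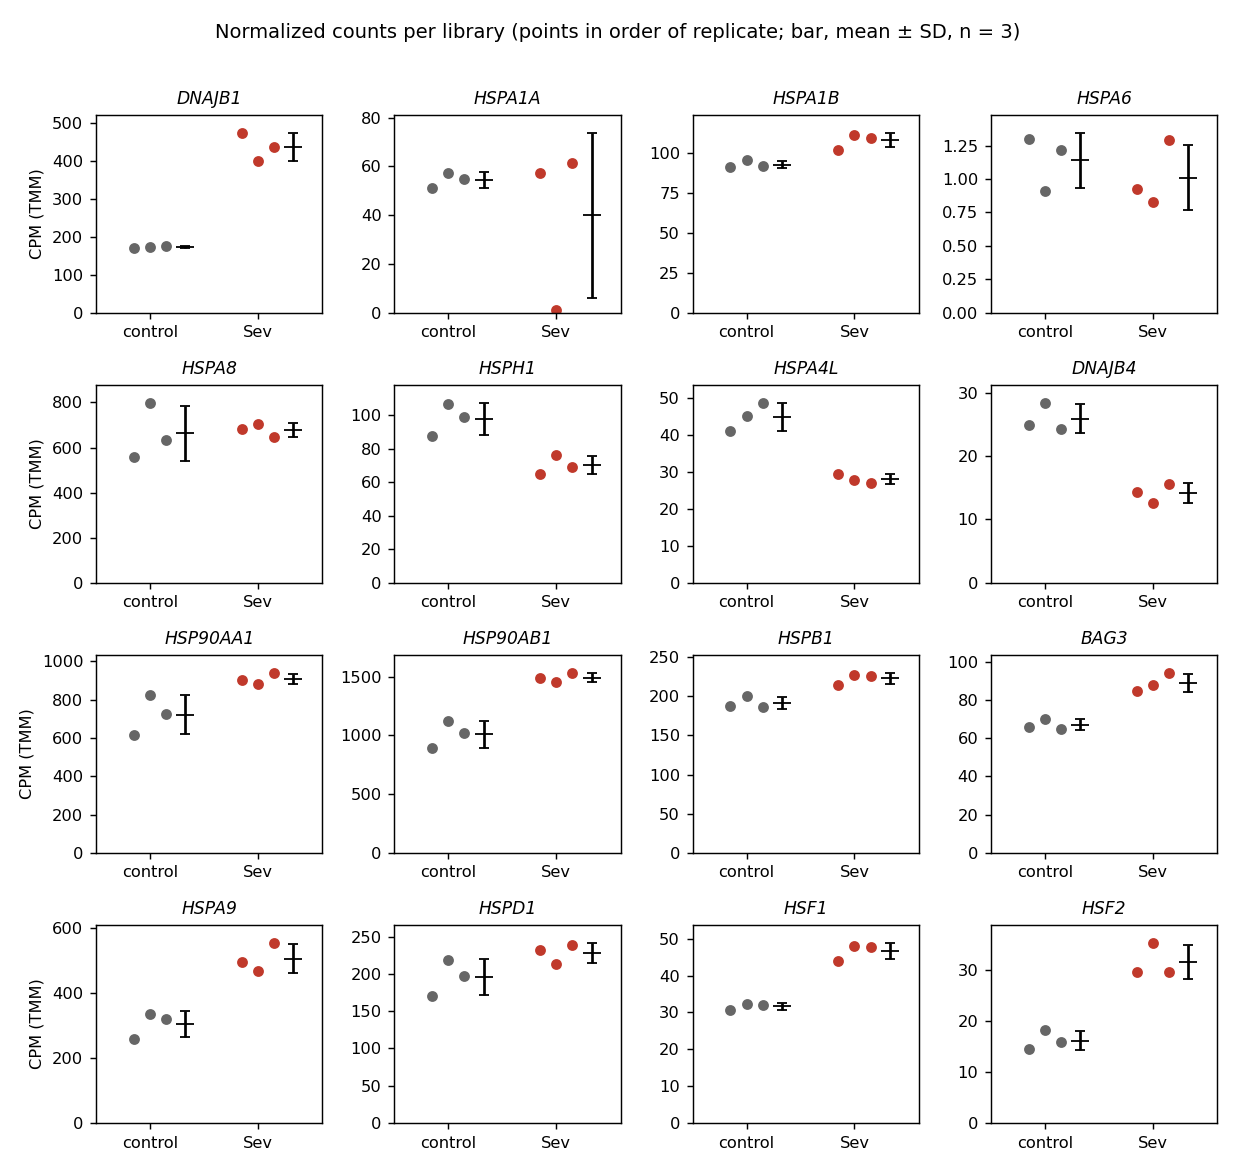
TMM-normalized CPM (vertical axes from 0, a scale for each gene) of 16 chaperone genes and regulators in the 3 control (grey) and 3 Sev (red) libraries, with the mean and SD of each group. DNAJB1, HSP90AB1, HSPA9, HSF1 and HSF2 are separated upward, HSPH1, HSPA4L and DNAJB4 downward, and a single Sev library holds almost no HSPA1A.

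Of the HSP110 exchange factors, which restart the HSP70 cycle, 2 were lower and 1 was higher. HSPH1 (HSP105) was read at 88, 107 and 98.9 CPM in control and at 65.3, 76.4 and 69.4 CPM in Sev. All Sev libraries lay below all control libraries (log2 fold change -0.48, SE 0.10, edgeR adjusted p = 0.00716). HSPA4L (APG-1) fell further, from 41, 45.2 and 48.5 CPM to 29.5, 27.9 and 26.9 CPM, again without overlap (log2 fold change -0.67, SE 0.10, edgeR adjusted p = 0.00136). HSPA4 (APG-2), the most abundant of the 3, went the other way, from 134, 151 and 139 CPM to 177, 192 and 165 CPM (log2 fold change 0.33, edgeR adjusted p = 0.0175), a call lost in 3 of the 6 fits with a library left out and with scaling by library size. HSPH1 and HSPA4L kept their calls in all of these fits.

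Both partners of the ribosome-associated complex, which meets new chains as they leave the ribosome, were higher. Its J-domain protein DNAJC2 rose from 33.7, 38 and 36.3 CPM to 63.2, 64.7 and 64.2 CPM, with the Sev libraries close together and far above the control libraries (1.78-fold, log2 fold change 0.83, SE 0.082, edgeR adjusted p = 3.11e-04). Its HSP70, HSPA14, rose from 12.7, 14.2 and 11 CPM to 20.9, 17.2 and 23.8 CPM (log2 fold change 0.71, SE 0.16, edgeR adjusted p = 0.00817). HSPA14 shares 17.4% of its exon bases with MSANTD7 on the same strand, so part of its counts is uncertain. The divergent HSP70 genes HSPA12A and HSPA12B had log2 fold changes of -0.32, which was not called, and 0.77, which was called but rested on 44 to 93 counts a library and was lost in 4 fits with a library left out. For HSPA12A the lowest edgeR adjusted p with a library left out was 0.0315. In all, 5 of the 13 HSP70 and HSP110 genes (38.5%) were higher, 2 (15.4%) were lower and 6 were not called, against 25% and 21% of protein-coding genes, and their median log2 fold change was 0.03, beside 0.038. Scaled by library size, 2 (15.4%) were higher and 2 (15.4%) lower, against 18.2% and 28.1% of protein-coding genes. The median was then -0.11, beside -0.10 over protein-coding genes.

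All 3 HSP90 genes were called higher in Sev, where 25% of protein-coding genes were, and with scaling by library size 1 of them was, against 18.2%. HSP90AB1 was read at 891, 1120 and 1024 CPM in control and at 1486, 1459 and 1532 CPM in Sev, where it was the most abundant of the members. No Sev library overlapped the control libraries (1.48-fold, log2 fold change 0.56, SE 0.10, edgeR adjusted p = 0.00359). HSP90AA1, the heat-inducible form, rose less, from 617, 824 and 725 CPM to 901, 884 and 939 CPM (log2 fold change 0.33, SE 0.11, edgeR adjusted p = 0.0452). TRAP1, the HSP90 of the mitochondrion, had a log2 fold change of 0.28 (SE 0.078, edgeR adjusted p = 0.0213), with 29.3% of its exon bases overlapped on the other strand. HSP90AB1 kept its call under every setting tried. HSP90AA1 lost it in 5 of the 6 fits with a library left out and TRAP1 in 4, and both lost it with scaling by library size.

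Within a library the ratio of 2 genes does not depend on the scaling, and some pairs, chosen after their values were seen and given with no test, separated the groups. HSP90AB1 had 1.44, 1.36 and 1.41 counts per count of HSP90AA1 in control and 1.65, 1.65 and 1.63 in Sev. DNAJB1 had 0.306, 0.216 and 0.277 counts per count of HSPA8 in control and 0.694, 0.568 and 0.676 in Sev. For HSPH1 the same ratio was 0.157, 0.134 and 0.156 in control and 0.0956, 0.108 and 0.107 in Sev. In these 3 ratios the groups did not overlap. For HSPA1B to HSPA8 they did, with 0.163, 0.119 and 0.144 in control and 0.15, 0.157 and 0.169 in Sev.

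Inside the mitochondrion HSPA9 (mortalin), the HSP70 that pulls proteins in and folds them, was the member with the largest rise. It was read at 258, 334 and 320 CPM in control and at 497, 468 and 554 CPM in Sev, with no overlap (1.67-fold, log2 fold change 0.74, SE 0.12, edgeR adjusted p = 0.00208). The HSP60 chaperonin HSPD1 was read at 171, 219 and 198 CPM in control and 232, 213 and 239 CPM in Sev, groups that overlapped (log2 fold change 0.22, 95% interval -0.021 to 0.46, edgeR adjusted p = 0.124). Its lid HSPE1 (HSP10) was not called either (log2 fold change 0.035, 95% interval -0.28 to 0.35), and processed copies of HSPE1 elsewhere in the genome held 24 to 34.8% of the counts of that family, so its level is uncertain. The HSPA9 to HSPD1 count ratio was 1.51, 1.53 and 1.61 in control and 2.14, 2.2 and 2.32 in Sev, also chosen after the values were seen.

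The J-domain proteins of the mitochondrion did not follow HSPA9 as a group. DNAJA3 (TID1), a matrix partner of HSPA9, fell from 38.1, 30.5 and 33.8 CPM to 15.7, 23.2 and 15.9 CPM, without overlap (log2 fold change -0.90, SE 0.17, edgeR adjusted p = 0.00443). DNAJC11, which sits at the membrane with the cristae-shaping MICOS complex, rose from 51.9, 52.6 and 46.3 CPM to 76.9, 72.1 and 72.5 CPM (log2 fold change 0.55, SE 0.085, edgeR adjusted p = 0.00175), although THAP3 overlaps 27.9% of its exon bases on the other strand. Of the import motor subunits, DNAJC19 was lower (log2 fold change -0.35, edgeR adjusted p = 0.0375), a call lost in 5 of 6 fits with a library left out. Copies of DNAJC19 elsewhere in the genome held 10.4 to 18.4% of the counts of that family, so its level is uncertain. Its relative DNAJC15 was not called, and the lowest edgeR adjusted p of DNAJC15 with a library left out was 0.0125. In all, 3 of 9 mitochondrial members (33.3%) were higher and 2 (22.2%) lower, near the 25% and 21% of protein-coding genes, with a median log2 fold change of 0.13, and of -0.0017 with scaling by library size, beside 0.038 and -0.10 over protein-coding genes.

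Among the 7 small heat shock genes tested, 3 (42.9%) were higher and none was lower, where 25% of protein-coding genes were higher and 21% lower. Scaled by library size, 2 (28.6%) were higher and none lower, against 18.2% and 28.1% of protein-coding genes. HSPB1 (HSP27) was read at 188, 200 and 186 CPM in control and 215, 227 and 226 CPM in Sev, without overlap but by a small margin (log2 fold change 0.22, SE 0.072, edgeR adjusted p = 0.0383), and it lost its call whichever library was left out and with scaling by library size. HSPB8 (HSP22), which works with BAG3 in clearing damaged proteins, was not called (log2 fold change -0.018, 95% interval -0.27 to 0.24). HSPB3, a muscle form, had 9, 3 and 7 counts in control and 19, 48 and 17 counts in Sev. All Sev libraries were above all control libraries, but at counts this low the 4.98-fold estimate has a 95% interval of 0.99 to 3.65 on the log2 scale (log2 fold change 2.32, edgeR adjusted p = 0.0136). With each library left out in turn, that log2 fold change ranged from 1.67 to 2.67. HSPB6 (HSP20) had 28, 17 and 38 counts in control and 47, 56 and 41 in Sev (2-fold, edgeR adjusted p = 0.0282), lost in 4 fits with a library left out. On the other strand 38.2% of its exon bases are overlapped. HSPB2, HSPB7 and HSPB9, mainly muscle and testis forms, reached at most 1.17 CPM in any library and were not called. For HSPB7 the lowest edgeR adjusted p with a library left out was 0.0458.

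Of the 38 tested J-domain genes, 9 were higher, 9 lower and 20 not called, with a median log2 fold change of -0.02. The 23.7% called in each direction lay near the background of 25% and 21% of protein-coding genes. Scaled by library size, 7 (18.4%) were higher and 11 (28.9%) lower, near the 18.2% and 28.1% of protein-coding genes under that scaling. Of the 4 class A members, the general HSP40s, DNAJA3 was lower, as given above. DNAJA1 (log2 fold change 0.10, 95% interval -0.18 to 0.38) and DNAJA2 (0.18, 95% interval 0.014 to 0.35, edgeR adjusted p = 0.0761) were not called, and neither was DNAJA4, although its Sev libraries were all below the control libraries. The lowest edgeR adjusted p of DNAJA4 with a library left out was 0.0083.

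In class B, DNAJB4 moved opposite to its close relative DNAJB1. DNAJB4 was read at 24.9, 28.4 and 24.3 CPM in control and at 14.3, 12.6 and 15.6 CPM in Sev, well apart (log2 fold change -0.87, SE 0.12, edgeR adjusted p = 0.00128). DNAJB12, an ER-membrane J-domain protein that faces the cytosol, rose from 40, 47.7 and 48.9 CPM to 65.8, 66.6 and 75.5 CPM (log2 fold change 0.61, SE 0.11, edgeR adjusted p = 0.00318). DNAJB8, a testis-enriched suppressor of protein aggregation, rose from 24, 17 and 27 counts to 51, 39 and 61 counts (log2 fold change 1.33, SE 0.27, edgeR adjusted p = 0.00567), a change at about 1 CPM. The aggregation suppressors of broader expression, DNAJB2 (log2 fold change -0.27) and DNAJB6 (0.20), were not called, and their groups overlapped. DNAJB2 was called lower without Sev replicate 2 (-0.47, edgeR adjusted p = 0.0147). DNAJB6 was called higher without Sev replicate 3 (0.29, edgeR adjusted p = 0.0355), and copies of it elsewhere in the genome held 8.81 to 11.3% of the counts of that family.

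Class C, whose members share little beyond the J-domain, held 6 higher and 7 lower genes of 25, or 24% and 28%, also near that background. Besides DNAJC2 and DNAJC11, DNAJC6 (auxilin), which strips clathrin from vesicles, rose from 20.6, 21.6 and 21.1 CPM to 30.2, 29.9 and 35 CPM (log2 fold change 0.59, SE 0.10, edgeR adjusted p = 0.00275). DNAJC8, a nuclear protein linked to splicing, was read at 81.6, 110 and 90.2 CPM in control and 120, 112 and 126 CPM in Sev, apart by a narrow gap (log2 fold change 0.34, edgeR adjusted p = 0.0458), and lost its call in 5 of 6 fits with a library left out. DNAJC9, a histone chaperone, and DNAJC25 were also called higher (log2 fold changes 0.76 and 0.43) and lost the call in 3 and 6 such fits. For DNAJC9, 28.6% of the exon bases are overlapped on the other strand.

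Downward in class C, DNAJC24, needed for the diphthamide mark of elongation factor 2, fell from 19.2, 18.8 and 20.6 CPM to 10.9, 9.26 and 11.5 CPM (log2 fold change -0.89, SE 0.12, edgeR adjusted p = 0.00115). DNAJC12, a partner of the aromatic amino acid hydroxylases, fell from 3.29, 4.49 and 4.31 CPM to 1.81, 2.24 and 1.84 CPM (log2 fold change -1.04, SE 0.20, edgeR adjusted p = 0.0044). DNAJC13, which acts on endosomes, fell from 82.8, 95 and 88.5 CPM to 63.2, 66.2 and 62.9 CPM (log2 fold change -0.47, SE 0.082, edgeR adjusted p = 0.00314). In all 3 of these genes the Sev libraries lay below the control libraries with a clear gap. DNAJC17, a nuclear protein, was lower as well (log2 fold change -0.56, edgeR adjusted p = 0.00671), with 26.1% of its exon bases overlapped on the other strand. DNAJC16 (-0.73, edgeR adjusted p = 0.0174) lost its call without control replicate 3, where the adjusted p was 0.0564.

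DNAJC28 went from 42, 27 and 62 counts to 23, 19 and 13 counts (log2 fold change -1.04, edgeR adjusted p = 0.0454) and lost its call in 5 fits with a library left out. DNAJC14 was an uneven case, at 30.8, 28.9 and 30.4 CPM in control and 20.9, 20.2 and 42.8 CPM in Sev. It was not called with all libraries, and without the high Sev replicate 3 its log2 fold change was -0.55 (edgeR adjusted p = 0.00728). Genes on the same strand share 23.2% of its exon bases. DNAJC5B had no count in any library, which allows up to 3 counts or 0.0617 to 0.0797 CPM a library for counting error, and DNAJC5G (3 to 12 counts) and the read-through HSPB2-C11orf52 (0 to 11 counts) were too low to be tested.

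All 3 regulators were called higher, as were 25% of protein-coding genes. HSF1, the main heat shock factor, which is controlled chiefly at the protein, was read at 30.6, 32.4 and 32 CPM in control and at 44, 48 and 47.7 CPM in Sev. HSF2, a second heat shock factor that can join HSF1 on DNA, was read at 14.4, 18.1 and 15.8 CPM in control and at 29.5, 35.2 and 29.5 CPM in Sev. In both genes every Sev library was above every control library, with edgeR log2 fold changes of 0.56 (SE 0.084, adjusted p = 0.00166) and 0.96 (SE 0.13, adjusted p = 9.07e-04). BAG3, the HSP70 exchange factor that directs clients to autophagy and a known HSF1 target, rose from 66.1, 70.3 and 64.9 CPM to 84.7, 88 and 94.2 CPM (log2 fold change 0.41, SE 0.080, edgeR adjusted p = 0.00517). All 3 kept their calls under every setting tried.

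The letters that heat shock factors bind were searched in the RefSeq promoters, 250 bases before to 50 after each start on GRCh38.p14, of which 60 of the 69 members had an entry. The element is built of the units GAA and TTC in turn, each parted from the next by 2 bases of any kind. The full form had 3 units, starting with either, and the short form, which lies inside the full form, had 2, each searched on both strands. The full form was in the promoters of 7 members, 11.7% of those with an entry, against 0.608% of 27305 genes in the table. A promoter with at least the short form was found for 36.7% of these members and 16.2% of all genes. The full form sites that lie before the start are printed here with 8 bases on each side (5 before the first HSPD1 site, where the promoter window begins), in the direction of the gene and with the matching letters in capitals, because they are the fullest matches among the members.
HSP90AB1: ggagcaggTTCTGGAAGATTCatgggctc (chr6:44247770-44247798, plus strand)
HSP90AB1: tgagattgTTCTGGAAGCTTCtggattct (chr6:44247823-44247851, plus strand)
HSP90AA1: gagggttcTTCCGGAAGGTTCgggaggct (chr14:102087112-102087140, minus strand)
HSPA8: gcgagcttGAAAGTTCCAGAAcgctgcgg (chr11:123062346-123062374, minus strand)
HSPA8: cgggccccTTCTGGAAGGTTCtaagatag (chr11:123062171-123062199, minus strand)
HSPD1: gcattTTCTGGAAAGTTCtggaaccg (chr2:197500065-197500090, minus strand)
HSPD1: attttctgGAAAGTTCTGGAAccgagcga (chr2:197500060-197500088, minus strand)
HSPA6: cggaaaggTTCGCGAAAGTTCgcggcggc (chr1:161524458-161524486, plus strand)
DNAJB6: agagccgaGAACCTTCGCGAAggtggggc (chr7:157336865-157336893, plus strand)

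The seventh member, DNAJA1, had its full form after the start and is not shown. Of the 7 members with the full form, HSP90AB1 and HSP90AA1 were called higher, the other 5 were not called and none was lower. None of the 5 members past the study's threshold held the full form. HSPA1A and HSPA1B had a single short site each, at 106 and 105 bases before the start, HSPB1 had 1 site, and DNAJB1 had the pair printed above and another just after a different RefSeq start.
HSPA1A: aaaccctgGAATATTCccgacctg (chr6:31815429-31815452, plus strand)
HSPA1B: aacccctgGAATATTCccgacctg (chr6:31827625-31827648, plus strand)
HSPB1: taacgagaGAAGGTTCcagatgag (chr7:76302483-76302506, plus strand)

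Of the 15 members with the short form alone, 7 were higher, 2 lower (DNAJB4 and HSPA4L) and 6 not called. Of 38 members with neither form, 11 were higher, 8 lower, 18 not called and 1 not tested. The 9 members without a promoter entry, which were not searched, held 3 higher (HSF1, HSPA14 and HSPA12B), 1 lower (DNAJC24), 3 not called and 2 not tested. The background of 25% higher and 21% lower holds for these counts too, and no difference between the promoter classes was tested. A match of letters is a description of these windows and says nothing of binding in these cells.

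The 7 lists of genes that work with the members, 75 genes in all, were set beside them. Of these, 29 (38.7%) were higher and 6 (8%) lower (edgeR, adjusted p under 0.05, median log2 fold change 0.20), where 25% of protein-coding genes were higher and 21% lower, with a median of 0.038. With scaling by library size 15 (20%) were higher and 11 (14.7%) lower, against 18.2% and 28.1% of protein-coding genes, whose median was then -0.10. The single lists, of 6 to 20 genes, are to be read against the same shares. Over the lists together, 14 of the 29 higher and 4 of the 6 lower calls held in every fit with a library left out. The chaperonin TRiC, which folds actin and tubulin, had 5 of 8 subunits higher and none lower, with CCT2 (log2 fold change 0.71), CCT5 (0.52) and CCT3 (0.51) in front and a median of 0.35. Prefoldin, which hands clients to TRiC, had 2 of 6 subunits higher, PFDN2 (0.54) and VBP1 (0.28), and VBP1 lost its call in 5 fits with a library left out. With scaling by library size TRiC had 3 subunits higher and prefoldin 1.

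Of the 12 HSP70 co-chaperones, 4 were higher and none lower. SGTA, which guides tail-anchored proteins, rose from 68.5, 80 and 76.1 CPM to 125, 134 and 122 CPM (log2 fold change 0.76, edgeR adjusted p = 5.41e-04). GRPEL2 (0.91) and GRPEL1 (0.58), the exchange factors of HSPA9, rose with it, as did the import factor TIMM44 (0.80), which docks HSPA9 at the inner membrane. In the list of mitochondrial proteases and chaperones 6 of 10 were higher, among them the protease AFG3L2 (0.59), and 1 was lower, the protease HTRA2 (-0.38). HTRA2 lost its call in 5 fits with a library left out. Scaled by library size, 3 HSP70 co-chaperones were higher and none lower, and in the mitochondrial list 4 were higher and 1 lower.

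The HSP90 co-chaperones went to both sides, with 3 of 20 higher and 5 lower, and 2 and 7 when scaled by library size. NUDC (0.41), CACYBP (0.66) and TOMM34 (0.36) were higher, and TOMM34 lost its call without control replicate 1 (edgeR adjusted p = 0.0528). CDC37L1, a relative of the kinase adaptor CDC37, fell from 15.4, 14.6 and 16.6 CPM to 7.59, 5.78 and 8.73 CPM (log2 fold change -1.08, edgeR adjusted p = 0.00187), and TTC4 (-0.69) was lower too. SUGT1 (-1.21) was read at 70.3, 72.2 and 34 CPM in control and 24.1 to 26.8 CPM in Sev, with control replicate 3 well under the other control libraries.

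Classical heat shock response genes outside the members gave 5 higher and none lower of 12, among them CACYBP again, UBB, DEDD2 (0.41) and the small heat shock protein CRYAB. UBB and DEDD2 lost the call in 5 fits with a library left out and CRYAB in 4. Only 1 of the 5 calls held in all such fits. Scaled by library size, 2 were higher and 1 lower. ZFAND2A, AHSA1, STIP1, FKBP4, CHORDC1, SERPINH1 and HSBP1 were not called. The ER chaperones, kept apart from the members, had 6 of 13 higher and none lower, led by HSPA5 (BiP, the HSP70 of the ER), which rose from 407, 447 and 431 CPM to 742, 728 and 794 CPM (log2 fold change 0.82, edgeR adjusted p = 2.98e-04), with its co-chaperone DNAJC3 (0.68), SDF2L1 (0.75) and DNAJB9 (0.40). SDF2L1 lost its call in 4 fits with a library left out and DNAJB9 in 3, and 2 of the 6 calls held in all such fits. Scaled by library size, 2 ER chaperones were higher and 2 lower, and the median of the list moved from 0.081 to -0.059 as that of protein-coding genes moved from 0.038 to -0.10.

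**Figure D4:**
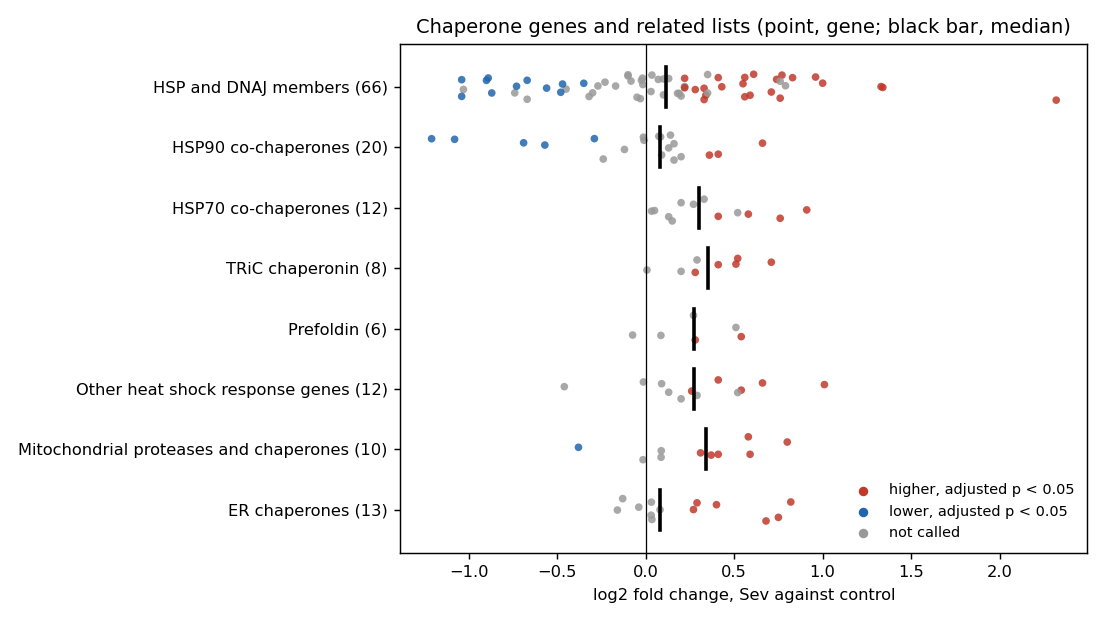
Log2 fold change of Sev against control for each tested gene (points, coloured by the edgeR call) of the chaperone genes and of 7 related lists (number of genes in brackets), with the median of each as a black bar. TRiC and the mitochondrial list sit highest, at medians of 0.35 and 0.34, and DNAJB1, DNAJB8 and HSPB3 lie beyond every gene of the related lists.

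Of the 34 calls among the members, 11 higher and 8 lower ones held under every alternative setting in which the gene could be tested. The 11 were DNAJB1, DNAJB8, DNAJB12, DNAJC2, DNAJC6, DNAJC11, HSP90AB1, HSPA9, HSF1, HSF2 and BAG3. The 8 were HSPH1, HSPA4L, DNAJA3, DNAJB4, DNAJC12, DNAJC13, DNAJC17 and DNAJC24. Leaving out HSPA1A and HSPA1B gave 22 higher and 11 lower, and leaving out read-through genes and members with at least 20% of exon bases shared gave 18 higher and 10 lower of 55.

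**Figure D5:**
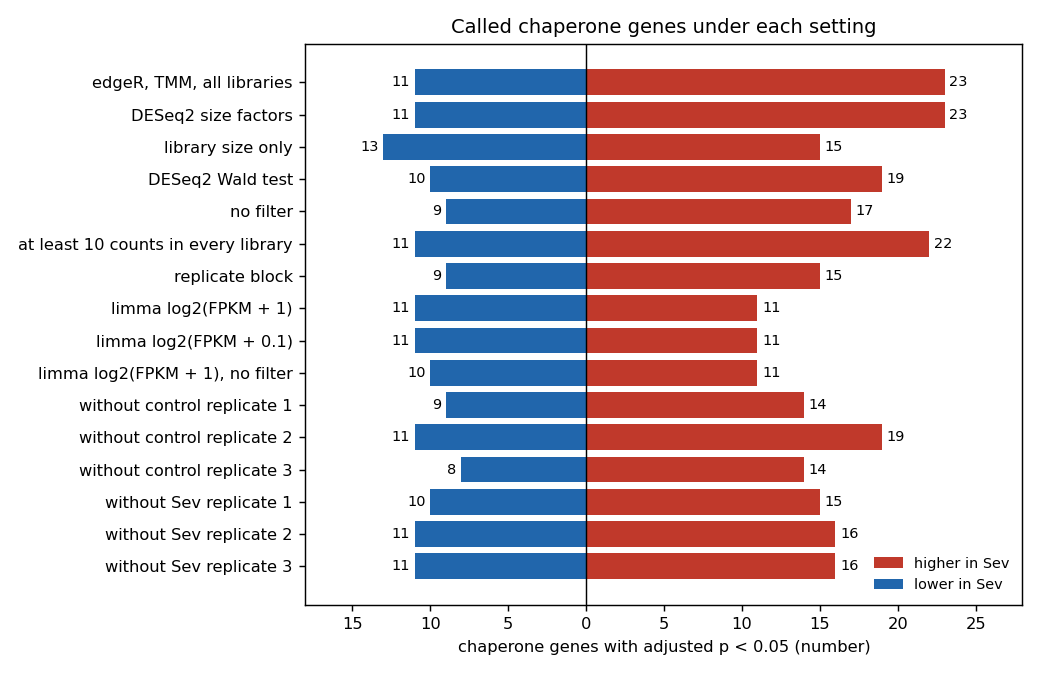
Number of chaperone genes with an adjusted p under 0.05, higher in Sev (right, red) and lower (left, blue), under the edgeR fit of all libraries and each alternative setting. The number of higher genes ranges from 11 with FPKM to 23, and that of lower genes from 8 to 13.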

How the data were processed

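The members and the related lists were chosen with earlier results of these data known. The authors deposited counts per gene for 6 libraries, without normalization, and FPKM for the same features, which divide counts by gene length and library total. The lengths they imply agreed within a CV of 1.05% between libraries, after a scale for each library was removed. This was computed over 8621 genes with over 500 counts in every library, and genes with fewer counts were not checked. The submitters' processing notes name bcl2fastq 2.19, featureCounts and hg18. The aligner and the strand setting of the counting are not given in the sources used here, so overlapping and antisense genes are uncertain. The identifiers are Ensembl, joined to symbols for 60295 of 61496 features and to positions in GENCODE 29 on GRCh38. No column was without a sample.

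Counts were filtered with filterByExpr, scaled by TMM and fitted by group with edgeR 4.0.16 (glmQLFit, glmQLFTest) in R 4.3.3, with Benjamini-Hochberg adjustment over 27514 features and a limit of 0.05. The study's threshold was a log2 fold change of more than 1 in either direction at an unadjusted p under 0.05. The study's methods name no test for the sequencing comparison. With 3 libraries a group, the smallest exact permutation p is 0.1. The SE is the absolute log2 fold change over the root of the quasi-likelihood F, and CPM hold no prior count. Intervals are at 95% and use the total degrees of freedom of the fit, residual plus prior. A count of 0 was read as allowing 3 counts. The models were tested on simulated data.

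Alternatives were size factors or the Wald test of DESeq2 1.42.0, scaling by library size only, no count filter, a minimum of 10 counts per library, a block for the replicate number, limma 3.58.1 on log2(FPKM + 1) or log2(FPKM + 0.1) with at least 0.5 FPKM in 3 libraries or, for the first, with no filter, and each library left out. Leaving out HSPA1A and HSPA1B, or genes sharing exon bases, was added after the data were seen. Named were a set of known chaperones, members past the threshold, the 8 with the smallest p in each direction, the 10 with the highest mean FPKM, up to 3 genes in each direction per list, members whose call hangs on a library, and members untested or sharing reads. HSPA12A, HSPA1L, HSPB2, HSPB7, HSPB9, DNAJA2, DNAJA4, DNAJC15 and the uncalled or further called genes of the lists were named after their values were seen. The result for 1 gene of the related lists is not reported here.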

Additional observations from a re-analysis of the deposited data

How the results depend on the processing

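Precision was limited by 3 libraries a group and, for genes under about 1 CPM, by depth. Where a cause is not plain from the setting, it was not tested. With scaling by library size only, 15 members were higher, 6 were lower at the study's threshold, 15 genes of the related lists were higher and 11 lower, and the members' median log2 fold change was -0.019. With limma on log2(FPKM + 1), log2(FPKM + 0.1) and log2(FPKM + 1) without a filter, 11 members were higher each time and 1 passed the threshold upward, 0 passed it downward in the first and last, and the members' median was -0.037, -0.04 and -0.02. The related lists then had 15, 15 and 12 genes higher and, in the first pair, 11 lower, and all features had 3676 and 3623 higher in that pair, where fewer features passed the filter. Without a count filter the related lists had 19 higher. DESeq2's size factors, its Wald test and the minimum of 10 counts moved none of these counts by over 1.5 times.

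The numbers of the replicates are not stated to mark shared cultures, and deviations of same-numbered libraries correlated at only -0.007, 0.004 and 0.027. With the replicate number as a block, 15 members were higher and the HSPA1 sum was -0.018. That sum, 0.004 in the report, also turned to -0.13 with library size only, -0.0085 without a filter, -0.0011 with at least 10 counts and -0.17 in each FPKM fit. DNAJA1 turned to -0.043 with library size only and to -0.042, -0.043 and -0.042 in the FPKM fits, HSPA8 to -0.11 and to -0.10 in each, and HSPE1 to -0.11 and to -0.10, -0.11 and -0.10. Of the 34 calls among the members, 8 were lost with library size only, 10 with the block, 8 without a filter, 5 with the Wald test, and 8, 8 and 13 in the FPKM fits.

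With each library left out in turn, 14 to 19 members were higher and 8 to 11 lower, 3 to 6 passed the threshold upward and 0 to 3 downward, and 17 to 24 genes of the related lists were higher and 4 to 6 lower. Over all features 4780 to 5709 were higher and 4438 to 5521 lower. The lowest count of higher members, 14, came without control replicate 1 or 3. The members' median ranged from 0.045 to 0.16, the HSPA1 sum from -0.11 to 0.17, HSPA1A from -0.89 to 0.13, HSPA8 from -0.088 to 0.18, HSPE1 from -0.05 to 0.13 and HSPB8 from -0.10 to 0.082.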
